A study of Mus musculus with 21 samples.

Results

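The genes described here encode the structural proteins of the extracellular matrix: 45 chains of collagen and laminin, the nidogens, fibronectin, Sparc, periostin, fibulins, fibrillins, 3 small leucine-rich proteoglycans and the lysyl oxidases. They were listed by symbol among the protein-coding genes of the mouse annotation (GRCm38, Ensembl release 96), by a list drawn up with earlier results of these data known, and had to reach a minimum of read pairs. In all, 74 genes carried such a symbol, and the 60 with at least 210 read pairs summed over the 21 islet samples were the members, out of 27229 genes tested and 55536 gene identifiers in the count files. The other 14 held from 3 to 141 read pairs in all 21 samples together: Col2a1, Col11a1, Col24a1, Col4a6, Col6a4, Col9a1, Col22a1, Col17a1, Lama1, Lamb3, Fbln7, Fbn2, Lox and Loxl4. By role, the 60 members were 8 fibril-forming collagens, 9 network and anchoring collagens, 7 chains of collagen VI and related collagens, 7 fibril-associated collagens, 5 transmembrane and multiplexin collagens, 9 laminin chains, 5 nidogens and adhesive glycoproteins, 4 fibulins and fibrillins, 3 small leucine-rich proteoglycans and 3 lysyl oxidases.

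Extracellular matrix occurs as basement membrane, a sheet of laminin and type IV collagen linked by nidogen on which cells sit, and as interstitial matrix, whose fibres are mostly type I, III and V collagen. Collagen chains are hydroxylated and folded in the endoplasmic reticulum, trimmed after secretion and crosslinked by lysyl oxidases, and cells attach to the finished matrix through integrins. In mouse islets the basement membranes lie along the capillaries, and endothelial cells, pericytes and other mesenchymal cells make most of the matrix, while the endocrine cells themselves make little of it.

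RNA came from pancreatic islets of CBA mice, males by the study's methods, on a regular diet (RD), a high-fat diet (HFD) or the same high-fat diet with O304 mixed into it (HFD-O304), with 7 samples a group. O304 is an activator of AMPK, the kinase through which cells respond to low energy, and acts on every form of it. By the methods it was given at 0.8 mg per g of diet from 10 weeks of age, for 9 weeks, while the text on these islets puts the mice at 20 weeks of age when islets were taken. For each sample, islets of 5 mice were pooled and RNA was made from 150 of them, so a sample is an average over animals. The islets were freed with collagenase, an enzyme that digests collagen, and picked by hand. The first HFD-O304 sample carries the diet tag HFD but was assigned by its title. The third HFD sample, titled HF islet, was assigned by its diet tag. Replicates 1 to 4 carry library numbers of one set and replicates 5 to 7 those of another.

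The libraries held 13809266 to 48922569 read pairs on genes, and the members held a small part of them, with a median of 0.0862% over the samples. All 10 beta-cell markers examined, among them the insulin genes, were read in every group in at least 4615 normalized counts. Some libraries stood apart in matrix genes. HFD replicate 7 had the lowest value of its group in 38 of the 60 members, against 2759 of the 17215 genes with at least 210 read pairs, and HFD-O304 replicate 4 had the highest of its group in 29 of 60, against 17.4% of these genes. HFD replicate 3 was the highest of its group in 29 and RD replicate 2 in 28 members. Counts of changed members are given with and without the first 2 of these libraries.

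Levels between genes were compared as RPKM, read pairs per kilobase of exon, scaled to library size, averaged over the 21 samples. Sparc, a collagen-binding glycoprotein, had the highest level at 39.9 RPKM, and Col4a1 and Col4a2, the chains of the common type IV collagen, followed with 25.3 and 14.1 RPKM. The next were Lamc1, the gamma chain shared by most laminins (7.29 RPKM), Nid1, the linker between laminin and type IV collagen (6.33 RPKM), and Col15a1, a basement membrane collagen of vessels (3.86 RPKM). Basement membrane genes thus held 5 of the first 6 places, with the exons of all transcripts joined as length. With the longest transcript as length the order changed. Bgn, a small proteoglycan, then had 7.36 RPKM, above Nid1 with 7.22, and Col15a1 with 4.73 lay below Col8a1 with 5.86. The chains of interstitial fibrils were lower, with 2.09 RPKM for Col3a1, 1.41 RPKM for Col1a2 and 0.561 RPKM for Col1a1, and the lowest member was Col7a1, the anchoring fibril collagen, at 0.0331 RPKM. The share of reads on genes that fell on the 60 members was 0.0804 to 0.101% in RD (median 0.0853%), 0.0820 to 0.136% in HFD samples (median 0.124%) and 0.0597 to 0.0902% in HFD-O304 islets (median 0.0764%).

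More matrix genes were higher than lower in HFD islets, and most of those that differed between HFD-O304 and HFD islets were lower with O304. In HFD vs RD islets, 11 members rose and 2 fell at an adjusted p under 0.01 (21.7% of 60), where 3.54% of all genes tested (2% higher and 1.54% lower) and 5.52% of genes with at least 210 read pairs (3.1% higher and 2.42% lower) passed. In HFD-O304 vs RD islets, 0 members rose and 3 fell (5.00%), where 1.31% of all genes (0.404% higher and 0.903% lower) and 2.05% of genes with at least 210 read pairs (0.627% higher and 1.42% lower) passed. In HFD-O304 vs HFD islets, 3 members rose and 32 fell (58.3%), where 11.9% of all genes (5.08% higher and 6.79% lower) and 18.3% of genes with at least 210 read pairs (7.85% higher and 10.4% lower) passed. The 3 comparisons share groups, so that they are not independent of each other. Of the 60, 37, 20 and 47 members had an unadjusted p under 0.05 in that order, where 21%, 14.4% and 29.3% of all genes had. Of the 20 members, 2 were higher in HFD-O304 than in RD islets (6.67% of all genes were higher and 7.7% lower at that p), and DESeq2 likewise called 0 members higher there. Every member called had differences of the same sign in both sets of libraries.

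The median log2 fold change of the 60 members was 0.30 in HFD vs RD, -0.20 in HFD-O304 vs RD islets and -0.70 in HFD-O304 vs HFD islets, where the medians of genes with at least 210 read pairs were 0.0036, 0.0091 and 0.015. HFD had the highest of the 3 group means in 43 members, against 39.8% of genes with at least 210 read pairs, and HFD the highest with HFD-O304 the lowest in 40 members, against 26.2%. Without HFD replicate 7, 18 members rose and 1 fell in HFD vs RD islets, and 2 rose and 36 fell in HFD-O304 vs HFD islets. Without HFD-O304 replicate 4 the same counts were 15 and 1, and 2 and 34. Leaving out RD replicate 5 or HFD replicate 3 left 7 calls in HFD vs RD islets, and RD replicate 6 or 7 or HFD replicate 4 left 6, all of them among the 13, while 6 members fell in HFD-O304 vs RD islets without HFD-O304 replicate 3. Because whole islets were sequenced, fewer cells of a type and less RNA per cell cannot be told apart in any of these differences.

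**Figure D1:**
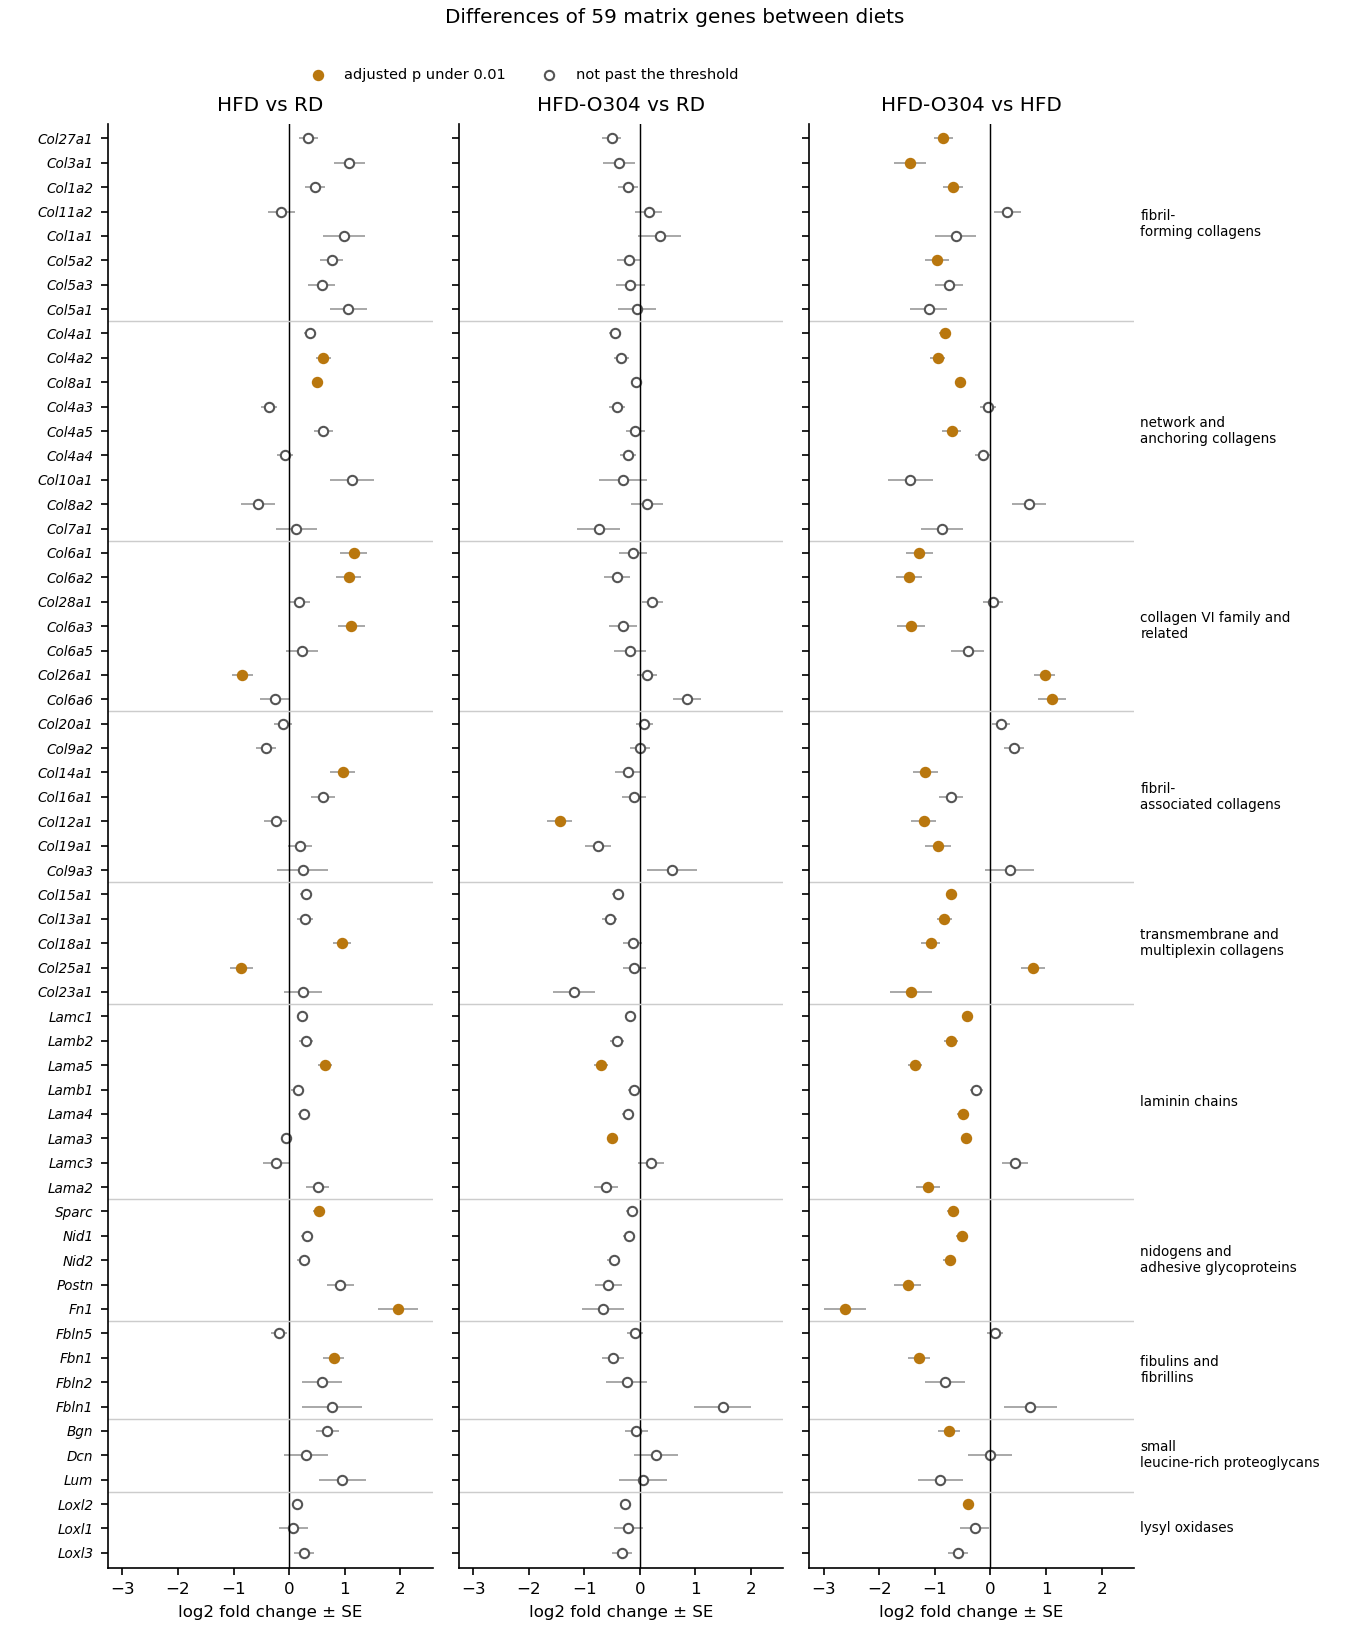
Log2 fold change ± SE (horizontal axis) of 59 of the 60 members (rows, grouped by role and ordered by level) in HFD vs RD, HFD-O304 vs RD and HFD-O304 vs HFD islets, with filled points for an adjusted p under 0.01. Filled points lie mostly right of 0 in the first panel (11 of 13), left of 0 in the second (3 of 3) and left of 0 in the third (32 of 35).

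By pattern, 10 members rose in HFD vs RD and fell in HFD-O304 vs HFD islets without a call between HFD-O304 and RD: Col4a2, Col6a1, Col6a2, Col6a3, Col8a1, Col14a1, Col18a1, Fbn1, Fn1 and Sparc. Lama5 was called in all 3 comparisons, Col12a1 and Lama3 were lower in HFD-O304 than in either other group, and Col25a1 and Col26a1 had the opposite course, lower in HFD than in either other group. A further 19 members were called lower, and Col6a6 higher, in HFD-O304 vs HFD islets alone. The remaining 25 members passed in no comparison.

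Type IV collagen, the network of every basement membrane, was the most read collagen, and its chains differed among themselves. Col4a1 had 5876 to 7800.0 (median 6389) normalized counts over the RD samples, 6158 to 10018 (median 9205) over the HFD samples and 3835 to 6641 (median 4967) over the HFD-O304 samples. Its log2 fold change (± SE, as in all such values) was 0.37 ± 0.10 (adjusted p = 0.0239) for HFD against RD islets, and -0.45 ± 0.10 (adjusted p = 0.0144) for HFD-O304 against RD islets, and neither passed with edgeR. DESeq2 called Col4a1 in both of these comparisons. It fell in HFD-O304 vs HFD islets, at -0.82 ± 0.11 (adjusted p = 2.05e-06). Col4a2 had 2605 to 3760.3 (median 2994) normalized counts over the RD samples, 3119 to 5702 (median 4620.0) over the HFD samples and 1638 to 3513 (median 2306) over the HFD-O304 samples. Col4a2 rose by a log2 fold change of 0.61 ± 0.13 (adjusted p = 0.00389) in HFD, a call kept in 16 of 21 fits with 1 sample left out, and was lower in HFD-O304 than in HFD islets at -0.95 ± 0.13 (adjusted p = 7.31e-06). In both genes 6 of the 7 HFD samples lay above every RD sample, and the lowest HFD sample, replicate 7, lay within the RD range.

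Col4a5, whose chain joins other type IV networks, fell in HFD-O304 vs HFD islets (log2 fold change -0.70, adjusted p = 0.00385, kept in 19 of 21 such fits) with no overlap between the groups, as 5.61% of genes with at least 210 read pairs did in that direction. Col4a3 and Col4a4, the partners of Col4a5 in the network of filtering basement membranes, had log2 fold changes of -0.047 and -0.14 in that comparison and passed in none. Col8a1 had 839 to 1086 (median 998) normalized counts over the RD samples, 1142 to 1552 (median 1417) over the HFD samples and 809.8 to 1052 (median 954) over the HFD-O304 samples. Col8a1, which forms the short-chain hexagonal network found beneath endothelium, rose in HFD (0.49 ± 0.076, adjusted p = 2.00e-04) and was lower with O304 than in HFD (-0.55 ± 0.077, adjusted p = 6.01e-06). The HFD samples did not overlap with either other group, and Col8a1 was the only member of the 60 without overlap between HFD and RD, where 1.02% of genes with at least 210 read pairs lay wholly above. Col7a1, Col8a2 and Col10a1, all with fewer than 80 normalized counts in every sample, passed in no comparison.

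Col4a1 and Col4a2 lie head to head on chromosome 8, and their RefSeq start sites are 21 bases apart, which is why both promoters are shown. Each is given 5′ to 3′ on the strand of its gene, from 250 bases before the RefSeq start site to 50 after it (GRCm38.p6), and the windows share 78 bases. Capitals mark matches, on either strand, of CCAAT or GGGCGG, the letters of the CCAAT box and of the GC box.
Col4a1, chr8:11312777-11313076, minus strand: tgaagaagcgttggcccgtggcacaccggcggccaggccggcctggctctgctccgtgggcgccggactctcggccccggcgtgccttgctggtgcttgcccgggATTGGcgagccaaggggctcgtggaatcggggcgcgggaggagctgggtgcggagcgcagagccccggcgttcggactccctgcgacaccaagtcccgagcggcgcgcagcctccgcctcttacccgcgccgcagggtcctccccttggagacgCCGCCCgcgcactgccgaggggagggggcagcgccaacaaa
Col4a2, chr8:11312555-11312854, plus strand: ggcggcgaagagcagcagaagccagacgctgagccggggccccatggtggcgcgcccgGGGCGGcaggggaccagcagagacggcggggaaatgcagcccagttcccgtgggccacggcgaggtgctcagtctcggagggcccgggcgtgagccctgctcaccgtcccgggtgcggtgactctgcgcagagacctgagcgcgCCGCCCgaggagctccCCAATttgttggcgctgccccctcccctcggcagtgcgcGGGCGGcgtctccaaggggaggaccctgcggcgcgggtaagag
The counts used here keep the strands apart. Of the 60 members, 41 had an entry among the RefSeq promoters, and GGGCGG was found in 28 of them (68.3%) against 38.2% of the promoters of all 27025 genes in the table. CCAAT was found in 13 of 41 (31.7%) against 41.1%, TATAAA in 5 (12.2%) against 15.7%, CAGACA, a Smad-binding sequence, in 13 (31.7%) against 23.6%, GGAATG, the core bound by TEAD factors, in 5 (12.2%) against 16.6%, and the CArG box of serum response factor in 1 (2.44%) against 1.81%. Windows of members share bases where genes are neighbours, and a match describes letters only.

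Fibronectin showed the largest change of all members averaging 50 or more normalized counts in both HFD vs RD and HFD-O304 vs HFD islets. Fn1 had 68.3 to 197 (median 87.8) normalized counts over the RD samples, 138 to 768 (median 441) over the HFD samples and 25.8 to 212 (median 49.8) over the HFD-O304 samples. Fn1 (fibronectin, chr1:71585520-71653200), which links fibrils to integrins, rose in HFD by a log2 fold change of 1.95 ± 0.36 (adjusted p = 0.00103) and was lower with O304 than in HFD, at -2.62 ± 0.38 (adjusted p = 9.91e-06). In all but replicate 7 the HFD samples lay above every sample of the other groups, and HFD-O304 and RD samples overlapped, with a log2 fold change of -0.66, adjusted p = 0.459. Both calls were kept whichever sample was left out.

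Sparc had 4234 to 5463 (median 4768) normalized counts over the RD samples, 5041 to 8268 (median 7286) over the HFD samples and 3574 to 5845 (median 4226) over the HFD-O304 samples. Sparc rose in HFD (0.53 ± 0.11, adjusted p = 0.00240) and was lower with O304 than in HFD (-0.67 ± 0.11, adjusted p = 4.84e-05). The HFD-O304 samples lay across the RD range and reached beyond it at both ends, and HFD replicate 7 lay within the RD range. The Sparc promoter is shown since Sparc is the member of highest RPKM. Capitals mark the 2 matches of CAGACA, both on the strand opposite to the gene and so printed as TGTCTG. The RefSeq start used here lies inside the gene as the Ensembl annotation draws it.
Sparc, chr11:55420031-55420330, minus strand: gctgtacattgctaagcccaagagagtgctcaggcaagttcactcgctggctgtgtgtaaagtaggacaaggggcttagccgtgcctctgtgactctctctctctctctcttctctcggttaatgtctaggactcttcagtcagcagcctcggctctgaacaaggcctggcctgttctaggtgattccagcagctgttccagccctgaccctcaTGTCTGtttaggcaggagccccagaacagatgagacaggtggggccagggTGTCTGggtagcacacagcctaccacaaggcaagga
Nid1 had 1329.7 to 1788 (median 1512) normalized counts over the RD samples, 1348 to 2262 (median 1961) over the HFD samples and 1045 to 1721 (median 1319) over the HFD-O304 samples. Nid1 and its paralog Nid2 did not pass in HFD vs RD islets, and both fell in HFD-O304 vs HFD islets, with log2 fold changes of -0.51 (adjusted p = 5.70e-04) and -0.73 (adjusted p = 2.34e-05). Postn had 179 to 405 (median 237) normalized counts over the RD samples, 216 to 799 (median 479) over the HFD samples and 113.9 to 358 (median 154) over the HFD-O304 samples. Postn, a matrix protein of fibroblasts that binds collagen, had a log2 fold change of 0.92, adjusted p = 0.0145 in HFD and fell in HFD-O304 vs HFD islets (-1.49, adjusted p = 5.61e-05). All 5 genes of this role were therefore lower in HFD-O304 than in HFD islets.

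Laminins are trimers of an alpha, a beta and a gamma chain, and the alpha chains carry the binding sites for integrins. Lama5, the alpha chain of the major laminins of vessel walls, was the one member past the threshold in all 3 comparisons with edgeR. With DESeq2, Col4a1 passed in all 3 as well. Lama5 had 536 to 928 (median 781) normalized counts over the RD samples, 809 to 1654 (median 1176) over the HFD samples and 391.9 to 562 (median 444) over the HFD-O304 samples. It rose in HFD (0.64 ± 0.12, adjusted p = 0.00139), was lower in HFD-O304 than in RD (-0.71 ± 0.13, adjusted p = 0.00112) and lower in HFD-O304 than in HFD islets (-1.35 ± 0.13, adjusted p = 1.59e-08). The HFD-O304 and HFD samples did not overlap, whereas 1 RD sample fell within the HFD-O304 range and 2 within the HFD range. In replicates 5 to 7 alone, the calls of Lama5 in HFD vs RD and HFD-O304 vs RD islets were not kept. None of its 3 calls was lost when any 1 sample was left out. The Lama5 promoter is shown for that reason, with capitals for 4 matches of GGGCGG.
Lama5, chr2:180225810-180226109, minus strand: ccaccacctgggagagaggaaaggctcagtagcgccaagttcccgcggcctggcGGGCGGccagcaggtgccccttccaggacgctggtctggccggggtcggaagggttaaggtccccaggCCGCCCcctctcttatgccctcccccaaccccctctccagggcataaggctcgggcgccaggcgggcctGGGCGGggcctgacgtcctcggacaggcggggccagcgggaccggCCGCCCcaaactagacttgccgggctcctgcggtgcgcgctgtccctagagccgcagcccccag

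Lama3 had 359 to 412 (median 383) normalized counts over the RD samples, 316 to 424 (median 381) over the HFD samples and 212 to 333 (median 287) over the HFD-O304 samples. Lama3, the alpha chain of epithelial laminins, did not pass in HFD vs RD (log2 fold change -0.058, adjusted p = 0.810) and was lower with O304 than in RD (-0.49 ± 0.10, adjusted p = 0.00269) and HFD (-0.44 ± 0.10, adjusted p = 0.00139). Every HFD-O304 sample lay below every RD sample, as in 1.37% of genes with at least 210 read pairs, and the call against RD was lost without HFD-O304 replicate 1 (adjusted p = 0.0105). Lama2 of muscle and mesenchymal basement membrane, Lama4 of endothelial basement membrane, Lamb2 and Lamc1 fell in HFD-O304 vs HFD islets, with log2 fold changes of -1.12, -0.49, -0.71 and -0.42, all past the threshold. The most read chain was Lamc1. Lamc1 had 2023 to 2264 (median 2121) normalized counts over the RD samples, 2057 to 2962 (median 2449) over the HFD samples and 1562 to 2313 (median 1885) over the HFD-O304 samples. Lamb1 and Lamc3 passed in no comparison.

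**Figure D2:**
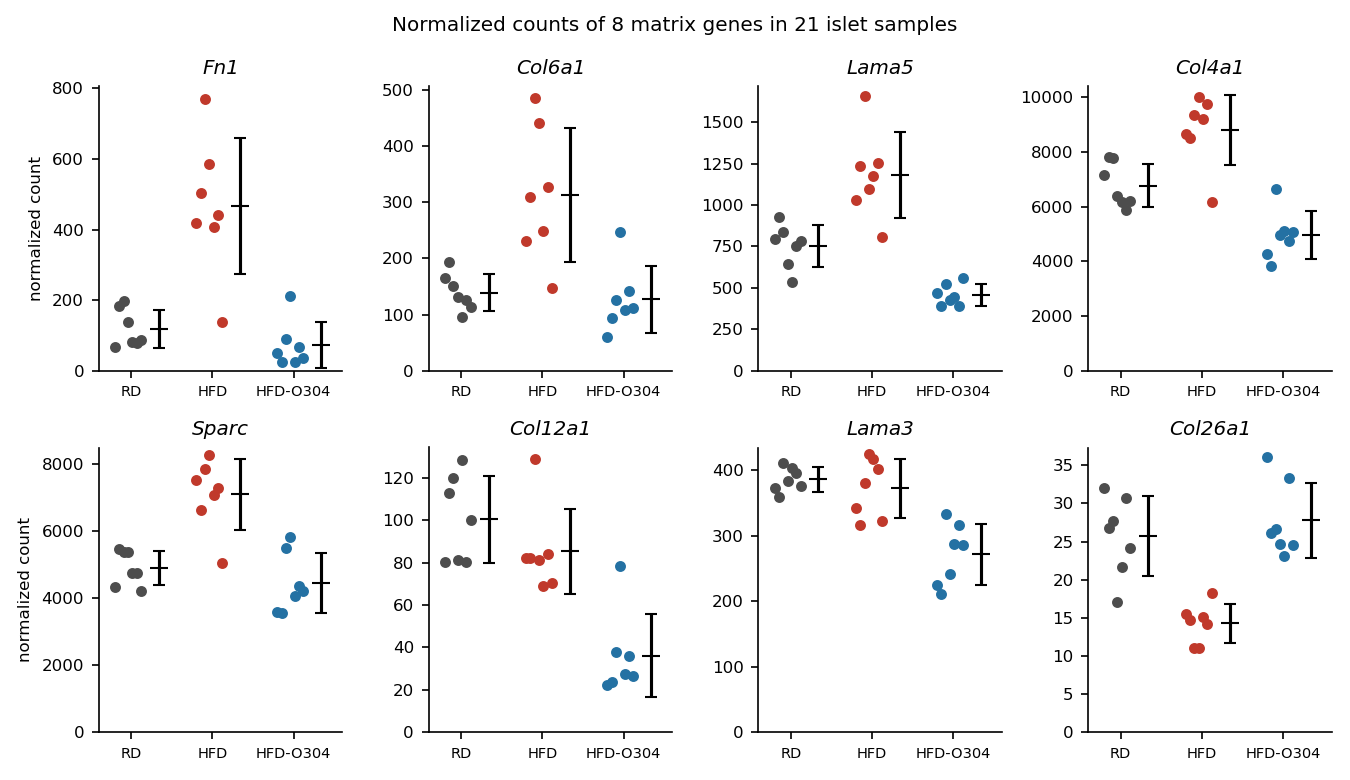
Normalized counts (vertical axes, from 0) of 8 members in each of the 21 samples (points), with the mean ± SD of each group of 7 (bars). For Fn1, Lama5, Col4a1 and Sparc 6 of the 7 HFD samples lie above all samples of the other groups, and HFD-O304 samples lie below RD for Col12a1 and Lama3. For Col26a1 the HFD mean is lowest, and HFD and RD samples overlap.

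Collagen VI, which forms beaded filaments around cells, rose in HFD islets in all 3 of its core chains. Col6a1 had 96.1 to 193 (median 131) normalized counts over the RD samples, 147 to 485 (median 309) over the HFD samples and 59.9 to 247 (median 111.97) over the HFD-O304 samples. Col6a2 had 125 to 277 (median 167) normalized counts over the RD samples, 167 to 541 (median 367) over the HFD samples and 75.8 to 229 (median 116.9) over the HFD-O304 samples. Col6a3 had 75.8 to 134 (median 105.8) normalized counts over the RD samples, 69.5 to 328 (median 238) over the HFD samples and 51.2 to 164 (median 83.8) over the HFD-O304 samples. The HFD medians were the highest in all 3 genes, RD and HFD-O304 overlapped, and HFD replicate 7 lay within the RD range or below it. In HFD vs RD islets the log2 fold changes were 1.16 ± 0.24 (adjusted p = 0.00295), 1.07 ± 0.23 (adjusted p = 0.00354) and 1.12 ± 0.25 (adjusted p = 0.00459), and in HFD-O304 vs HFD islets -1.28 ± 0.24 (adjusted p = 3.21e-04), -1.47 ± 0.23 (adjusted p = 3.33e-05) and -1.43 ± 0.25 (adjusted p = 1.27e-04). Col6a1 kept its call in HFD vs RD whichever sample was left out, while Col6a2 and Col6a3 lost it in 5 and 6 of the 21 such fits. Col6a5, whose HFD mean was the highest and HFD-O304 mean the lowest, and Col28a1 passed in no comparison.

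Col26a1 and Col6a6 had their lowest mean in HFD and their highest in HFD-O304 islets. Col26a1 had 17.1 to 32.0 (median 26.8) normalized counts over the RD samples, 11.01 to 18.3 (median 14.7) over the HFD samples and 23.1 to 36.1 (median 26.1) over the HFD-O304 samples. Col26a1, an emilin-related collagen, was lower in HFD than in RD (-0.85 ± 0.19, adjusted p = 0.00536), a call kept in 13 of 21 fits with 1 sample left out, and higher in HFD-O304 than in HFD (0.97 ± 0.19, adjusted p = 3.69e-04), with no overlap between HFD-O304 and HFD, as 3.94% of genes with at least 210 read pairs did in that direction. Col6a6 had 10.7 to 27.7 (median 15.9) normalized counts over the RD samples, 7.08 to 25.1 (median 12.01) over the HFD samples and 23.6 to 38.8 (median 34.0) over the HFD-O304 samples. Col6a6, an alternative chain of collagen VI, passed in HFD-O304 vs HFD islets only (1.10 ± 0.25, adjusted p = 0.00221), and its log2 fold change against RD was 0.85, adjusted p = 0.0603. Both have few read pairs, and their calls in the smaller data sets of replicates 1 to 4 or 5 to 7 alone were not kept.

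None of the 8 fibril-forming collagens passed in HFD vs RD islets with edgeR, although 6 had an unadjusted p under 0.05 and a higher level in HFD, and DESeq2 called 1, Col5a2. Col3a1 had 305 to 1011 (median 527) normalized counts over the RD samples, 433 to 1910.3 (median 1294) over the HFD samples and 247 to 968 (median 380.0) over the HFD-O304 samples. Col3a1, the collagen of reticular fibres, had a log2 fold change of 1.08 ± 0.28 (adjusted p = 0.0162) in HFD and fell in HFD-O304 vs HFD islets (-1.45 ± 0.29, adjusted p = 5.28e-04). Its exons overlap the unnamed gene Gm47302 on the same strand, so that read pairs on both are missing from its count. Col1a2 had 462 to 730.1 (median 548) normalized counts over the RD samples, 448 to 1146 (median 758) over the HFD samples and 354 to 913 (median 468) over the HFD-O304 samples. Col1a2, the second chain of type I collagen, fell in HFD-O304 vs HFD islets (-0.67 ± 0.18, adjusted p = 0.00936), a call that was kept in 5 of the 21 fits with 1 sample left out. Its partner Col1a1 ranged from 44.1 to 169 (median 71.4) in RD, from 58.2 to 369.6 (median 166) in HFD samples and from 52.2 to 323 (median 69.3) in HFD-O304 islets and passed in no comparison. Col5a2, a chain that sets fibril diameter, and Col27a1, a fibrillar collagen of cartilage and other tissues, fell in HFD-O304 vs HFD islets (log2 fold change -0.96, adjusted p = 0.00147, and -0.85, adjusted p = 5.53e-04). Col5a1, Col5a3 and Col11a2 did not pass.

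Among fibril-associated collagens, which sit on the surface of fibrils, Col12a1 was the member with the lowest log2 fold change against RD. Col12a1 had 80.1 to 128 (median 99.9) normalized counts over the RD samples, 68.9 to 129 (median 82.2) over the HFD samples and 22.4 to 78.5 (median 27.6) over the HFD-O304 samples. It was lower in HFD-O304 than in RD (-1.44 ± 0.22, adjusted p = 2.07e-04) and HFD (-1.20 ± 0.22, adjusted p = 2.24e-04), and HFD and RD overlapped (-0.24, adjusted p = 0.579). All HFD-O304 samples lay below all RD samples, although replicate 4, the highest with 78.5, lay close to the lowest RD sample. Col14a1 had 112.1 to 213 (median 155) normalized counts over the RD samples, 130.4 to 540.3 (median 303.6) over the HFD samples and 80.1 to 223 (median 131) over the HFD-O304 samples. Col14a1 rose in HFD (0.96 ± 0.23, adjusted p = 0.00752), a call kept in 11 of 21 fits with 1 sample left out, and was lower with O304 than in HFD (-1.17 ± 0.23, adjusted p = 4.07e-04). Col19a1, with 9.71 to 35.5 normalized counts over all samples, fell in HFD-O304 vs HFD islets (-0.95, adjusted p = 0.00439), a call kept in 15 of 21 such fits. Col9a2, Col9a3, Col16a1 and Col20a1 did not pass, and Col20a1 and Col9a2, the highest of this role at 1.47 and 1.08 RPKM, had log2 fold changes of 0.19 and 0.42 in HFD-O304 vs HFD islets.

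All 5 transmembrane and multiplexin collagens passed in HFD-O304 vs HFD islets. Col18a1 had 234 to 354 (median 274) normalized counts over the RD samples, 289 to 767 (median 558) over the HFD samples and 199 to 365 (median 229) over the HFD-O304 samples. Col18a1, a basement membrane collagen whose end piece is endostatin, rose in HFD (0.95 ± 0.17, adjusted p = 7.23e-04) and was lower with O304 than in HFD (-1.07 ± 0.17, adjusted p = 3.43e-05), and both calls were kept whichever sample was left out. Col15a1 had 819 to 961 (median 888) normalized counts over the RD samples, 814 to 1285 (median 1184) over the HFD samples and 509 to 919 (median 659.7) over the HFD-O304 samples. Col15a1, its close relative, fell in HFD-O304 vs HFD islets (-0.70 ± 0.11, adjusted p = 2.02e-05), and so did Col13a1, a transmembrane collagen of cell-matrix junctions (-0.83, adjusted p = 6.90e-05), and Col23a1, with at most 27.1 normalized counts in any sample (-1.44, adjusted p = 0.00701), whose call was kept in 12 of 21 fits with 1 sample left out.

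Col25a1, a transmembrane collagen of neurons, took the opposite course. Col25a1 had 27.7 to 59.2 (median 35.5) normalized counts over the RD samples, 14.1 to 31.7 (median 22.5) over the HFD samples and 27.4 to 51.1 (median 34.7) over the HFD-O304 samples. It was lower in HFD than in RD (-0.86 ± 0.21, adjusted p = 0.00935) and higher in HFD-O304 than in HFD (0.77 ± 0.21, adjusted p = 0.00937), and each call was kept in 5 of 21 fits with 1 sample left out. Its promoter is printed as that of a member with the reverse direction, with capitals for CCAAT and GGGCGG. The RefSeq start lies inside the longer Ensembl gene.
Col25a1, chr3:130180595-130180894, plus strand: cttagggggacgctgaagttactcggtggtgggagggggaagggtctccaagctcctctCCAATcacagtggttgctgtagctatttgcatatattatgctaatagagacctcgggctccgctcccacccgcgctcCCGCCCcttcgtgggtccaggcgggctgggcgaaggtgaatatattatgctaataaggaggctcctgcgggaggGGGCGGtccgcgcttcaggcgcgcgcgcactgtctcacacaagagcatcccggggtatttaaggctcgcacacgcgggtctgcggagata

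Of the genes of elastic fibres, Fbn1, the main fibrillin of microfibrils, passed. Fbn1 had 95.5 to 150.2 (median 127) normalized counts over the RD samples, 101.7 to 282 (median 221) over the HFD samples and 52.2 to 139 (median 79.6) over the HFD-O304 samples. Fbn1 rose in HFD (0.80 ± 0.19, adjusted p = 0.00951), a call kept in 6 of 21 fits with 1 sample left out, and was lower with O304 than in HFD (-1.28 ± 0.20, adjusted p = 2.59e-05), a call kept in all 21. Fbln1, Fbln2 and Fbln5, the fibulins, passed in no comparison, and Fbln5, the best measured, had a median of 135 normalized counts in RD, 113.9 in HFD samples and 121.1 in HFD-O304 islets. Bgn had 479 to 732 (median 586) normalized counts over the RD samples, 567 to 1317 (median 909) over the HFD samples and 316 to 1147 (median 490.3) over the HFD-O304 samples. Bgn, a small proteoglycan that binds collagen, fell in HFD-O304 vs HFD islets (-0.75 ± 0.20, adjusted p = 0.00930), but this call was kept in only 2 of 21 fits with 1 sample left out. Dcn and Lum, its relatives, did not pass, and Dcn ranged from 41.5 to 209.5 (median 106.5) in RD, from 54.8 to 234 (median 108.1) in HFD samples and from 36.8 to 377 (median 98.2) in HFD-O304 islets. In HFD vs RD islets 0 of these 3 proteoglycans passed with edgeR or DESeq2, and 2 had an unadjusted p under 0.05.

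Lysyl oxidases crosslink collagen and elastin. Loxl2 had 582 to 774 (median 680.2) normalized counts over the RD samples, 610.1 to 923 (median 752) over the HFD samples and 495 to 647 (median 599) over the HFD-O304 samples. Loxl2, which also crosslinks type IV collagen, fell in HFD-O304 vs HFD islets (-0.41 ± 0.082, adjusted p = 6.03e-04), and read pairs on the microRNA gene Mir6950 in its exons are missing from its count. Loxl1 and Loxl3 did not pass. In HFD vs RD islets 0 of the 3 lysyl oxidases passed with either tool, and 0 had an unadjusted p under 0.05.

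Markers of the cells that make matrix differed between the same groups. The summed normalized counts of 15 markers of stellate cells, fibroblasts and pericytes ranged from 11405 to 15771 (median 13953) in RD, 14389 to 23138 (median 20017) in HFD samples and 7557 to 11728 (median 8401) in HFD-O304 islets, and HFD replicate 7 was the lowest of its group, where the other 6 lay from 19863 to 23138. Of these 15 markers, 6 were higher in HFD than in RD, 4 were lower in HFD-O304 than in RD and 10 were lower in HFD-O304 than in HFD islets. The pericyte and smooth muscle gene Rgs5 ranged from 6852 to 10431 (median 8945) normalized counts in RD, from 9129.7 to 14568 (median 13122) in HFD samples and from 4671 to 7346 (median 5181) in HFD-O304 islets. Acta2, smooth muscle actin, ranged from 506 to 746 (median 609), from 601 to 1492 (median 1153) and from 214 to 489 (median 344) in the same order. The fibroblast markers Pdgfra and Pdpn were at 0 in some samples of every group and reached at most 16.8 and 3.53 normalized counts. The sum was not scaled by gene, and by the medians above Rgs5 alone made up most of it in every group. The level of this list in the fits and correlations below therefore rests largely on Rgs5, and Pdgfra and Pdpn add little to it.

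The 12 endothelial markers summed to 23289 to 28051 (median 26128) in RD, 22270.5 to 32202 (median 27058) in HFD samples and 18305 to 27769 (median 22625) in HFD-O304 islets. With edgeR 0 of them passed in HFD vs RD islets (4 at an unadjusted p under 0.05), 2 were lower in HFD-O304 than in RD, Pecam1 and Tek, and 4 were lower in HFD-O304 than in HFD islets. When the level of the stellate, fibroblast and pericyte markers was added to the fit, 0 members passed in HFD vs RD islets (5 at an unadjusted p under 0.05), 1 in HFD-O304 vs RD islets, Sparc, now higher at a log2 fold change of 0.47, and 0 in HFD-O304 vs HFD islets (14 at an unadjusted p under 0.05). With the level of the acinar markers in the fit 12, 3 and 35 members passed in the 3 comparisons. The fit with the stellate, fibroblast and pericyte level left 2, 26 and 5 calls among all 27229 genes in place of 963, 356 and 3230. HFD-O304 and HFD samples did not overlap in this marker level, so that group and marker level cannot be told apart in it. With the endothelial level in the fit, 9 members rose and 2 fell in HFD vs RD islets and 12 fell in HFD-O304 vs HFD islets.

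Within groups, some members varied from sample to sample with these marker lists. Group means were removed, and each member was correlated with each list over the 21 samples, with permutation p adjusted over the 120 relations. With the stellate, fibroblast and pericyte list, 25 of 60 members passed an adjusted p of 0.05, 24 of them positively, and with the endothelial list 11 did, all positively. By Spearman's rho these were 21 and 11, and the genes of a sample share its library and normalization. With the stellate, fibroblast and pericyte list, Col5a1, Col16a1, Col4a2 and Col26a1 passed by r but not by rho. Their adjusted permutation p by rho was 0.128, 0.0605, 0.121 and 0.170. Sparc had Pearson r 0.94 and rho 0.92 with the first list (adjusted permutation p = 6.00e-04 and 6.00e-04), Col18a1 0.88 and 0.76 (8.00e-04 and 0.00280) and Fn1 0.84 and 0.87 (0.00120 and 6.00e-04). Without the 2 samples farthest from the median marker level r was 0.91 for Sparc, 0.80 for Col18a1 and 0.81 for Fn1. In replicates 1 to 4 and 5 to 7 it was 0.93 and 0.99 for Sparc, 0.91 and 0.85 for Col18a1, and 0.80 and 0.78 for Fn1. With the endothelial list these were 0.75 and 0.95 for Sparc, 0.83 and 0.81 for Col18a1, and 0.47 and 0.70 for Fn1. The interstitial and pericellular genes Col1a2, Col3a1, Col5a1, Col5a2, Col6a1, Col6a2, Col6a3, Col14a1, Fbn1, Bgn and Postn also passed with this list. So did Col12a1, Col16a1 and Loxl2, and the basement membrane and vessel wall genes Nid1 (r 0.82, adjusted permutation p = 0.00180), Lama2 (0.78, 0.00425), Col4a1 (0.69, 0.0178) and Col8a1 (0.56, 0.0493), none of which passed with the endothelial list. Col4a1 came near the threshold with that list, at r 0.56 (adjusted permutation p = 0.0542). Without the 2 farthest samples r with the first list was 0.68 for Nid1, 0.62 for Lama2, 0.42 for Col4a1 and 0.45 for Col8a1. In replicates 1 to 4 and 5 to 7, r with the endothelial list was 0.82 and 0.80 for Nid1, and 0.79 and 0.84 for Col4a1. It was 0.54 and 0.86 for Lama2, and 0.30 and 0.38 for Col8a1.

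With the endothelial list, Lama3 had r 0.90 and rho 0.88 (adjusted permutation p = 6.00e-04 and 8.00e-04), Lamb2 0.82 and 0.84 (0.00267 and 0.00150), and Lamc1 0.81 and 0.84 (0.00312 and 0.00160). Without the 2 farthest samples r was 0.88, 0.82 and 0.76, and within the sets of libraries it was 0.97 and 0.84 for Lama3, 0.82 and 0.84 for Lamb2, and 0.93 and 0.77 for Lamc1. The basement membrane genes Lama4, Nid2, Col4a3 and Col4a4 and the transmembrane collagen Col13a1 passed with the endothelial list alone, and Col4a2, Col15a1 and Lamb1 with both. Within the sets of libraries, r with the first list was 0.67 and 0.93 for Lama3, and 0.68 and 0.80 for Lamb2. It was 0.56 and 0.84 for Lamc1, 0.65 and 0.82 for Lama4, and 0.67 and 0.84 for Nid2. For Col13a1 it was 0.26 and 0.57, for Col4a3 0.22 and 0.66, and for Col4a4 0.57 and 0.24. Lama5, called in all 3 comparisons, passed with neither, at r 0.39 (adjusted permutation p = 0.212) and 0.16 (adjusted permutation p = 0.716). Col26a1 was negative with the first list, at r -0.55 and rho -0.43 (adjusted permutation p = 0.0421 and 0.170).

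**Figure D3:**
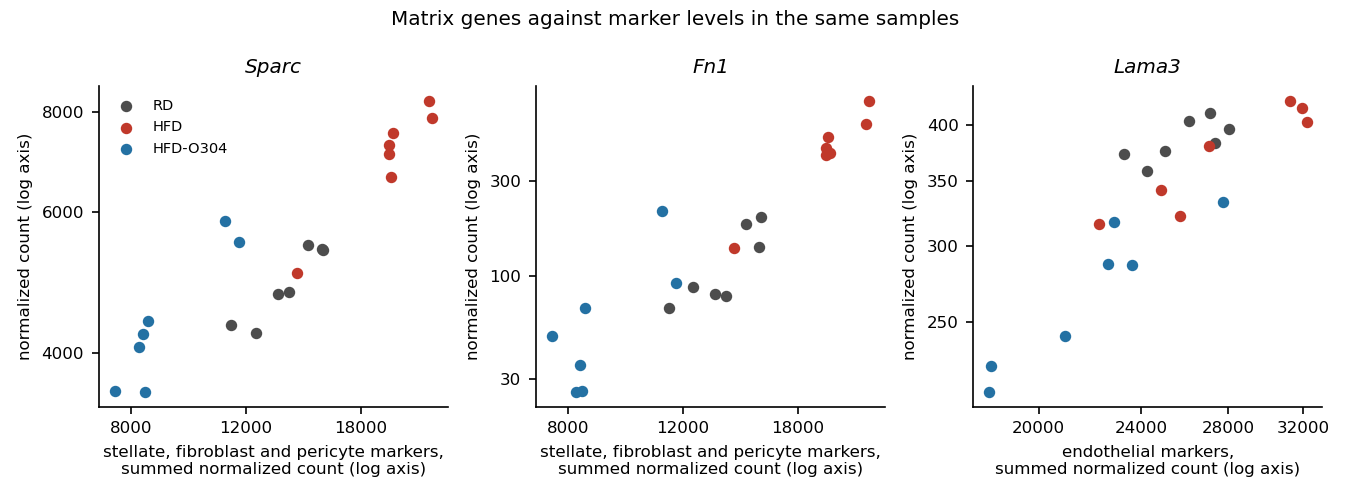
Normalized counts of Sparc and Fn1 against the summed normalized counts of 15 stellate, fibroblast and pericyte markers, and of Lama3 against those of 12 endothelial markers, in 21 samples (points, log axes). Sparc and Fn1 are high in the HFD samples with high marker levels, and HFD replicate 7 lies among the RD samples in both.

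**Figure D4:**
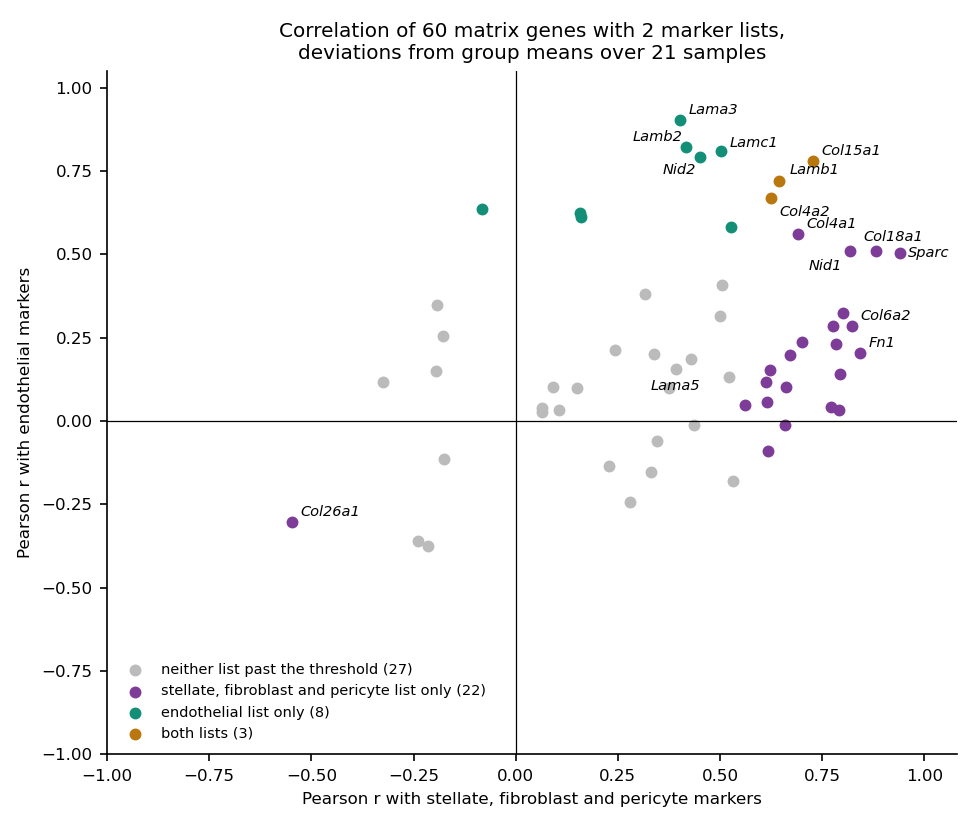
Pearson r of each of the 60 members with the stellate, fibroblast and pericyte list (horizontal axis) and with the endothelial list (vertical axis), over deviations from group means in 21 samples. Of the members, 22 passed with the first list alone, 8 with the endothelial list alone, 3 with both and 27 with neither.

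Differences within the 2 sets of libraries had the same sign in 55 of 60 members in HFD vs RD, 48 in HFD-O304 vs RD islets and 55 in HFD-O304 vs HFD islets. Fn1, for example, had differences of 1.94 and 1.98 on the log2 scale in HFD vs RD islets, and Lama5 -1.47 and -1.21 in HFD-O304 vs HFD islets. The test of a difference between sets called 0 members in any comparison with edgeR or DESeq2, and 2 members had an unadjusted p under 0.05 in each. In HFD vs RD islets Col8a1 was the nearest, with log2 differences of 0.69 and 0.23 and an adjusted p of 0.544 (edgeR).

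For the pathway lists that follow, the shares of genes with at least 210 read pairs that passed in either direction were 5.52%, 2.05% and 18.3% in HFD vs RD, HFD-O304 vs RD and HFD-O304 vs HFD islets. The genes for the processing of collagen that passed were all higher in HFD vs RD islets and all lower in HFD-O304 vs HFD islets. Of 25 hydroxylases, chaperones and propeptide proteases, 3 rose in HFD vs RD islets, 0 passed in HFD-O304 vs RD islets (4 at an unadjusted p under 0.05) and 11 fell in HFD-O304 vs HFD islets, with median log2 fold changes of 0.30, -0.085 and -0.32. P3h2 had 255 to 439 (median 322) normalized counts over the RD samples, 409 to 934 (median 747) over the HFD samples and 170.0 to 353 (median 219) over the HFD-O304 samples. P3h2, a prolyl 3-hydroxylase of type IV collagen, rose in HFD (0.97 ± 0.17, adjusted p = 6.32e-04) and was lower with O304 than in HFD (-1.51 ± 0.18, adjusted p = 5.22e-07). Bmp1, the protease that trims procollagens, rose in HFD (0.30, adjusted p = 0.00524), and Adamts2, which removes their amino end, rose in HFD (0.91, adjusted p = 0.00909) and fell in HFD-O304 vs HFD islets (-0.95, adjusted p = 0.00230). Fkbp10, a collagen chaperone, fell in HFD-O304 vs HFD islets (-1.08, adjusted p = 1.38e-04).

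Among 26 matrix receptors, 1 rose in HFD vs RD islets, 3 fell in HFD-O304 vs RD islets, and 1 rose and 10 fell in HFD-O304 vs HFD islets, with median log2 fold changes of 0.15, -0.11 and -0.31. The call in HFD vs RD islets is 3.85% of the list, near the share of all genes, and those in the other two comparisons are 11.5% and 42.3%. Itga7 had 188 to 301 (median 234) normalized counts over the RD samples, 261 to 480.1 (median 348) over the HFD samples and 100.6 to 176 (median 139) over the HFD-O304 samples. Itga7, a laminin-binding integrin chain of muscle cells, was lower with O304 than in RD (-0.83 ± 0.14, adjusted p = 4.27e-04) and HFD (-1.36 ± 0.14, adjusted p = 5.19e-08), and the collagen receptor chain Itga1 fell likewise (-0.55, adjusted p = 0.00219, and -0.70, adjusted p = 1.37e-05). Itgb8 was the one receptor that rose in HFD (0.46, adjusted p = 0.00877). Sdc4, a heparan sulfate receptor, fell in HFD-O304 vs RD islets (-0.38, adjusted p = 0.00849). Itga8 and Itgb4 fell, and Itga2, a collagen receptor of epithelia, rose, in HFD-O304 vs HFD islets (log2 fold changes -1.14, -1.22 and 0.68).

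Of 26 matrix proteases and inhibitors with enough read pairs, 2 rose in HFD vs RD islets, 0 passed in HFD-O304 vs RD islets with edgeR (5 at an unadjusted p under 0.05) and 6 fell in HFD-O304 vs HFD islets, with medians of 0.15, -0.18 and -0.37. The 2 genes that rose are 7.69% of the list, and the 6 that fell are 23.1%. Both shares lie near the 5.52% and 18.3% given above for either direction. Counting only the direction of these calls, the background shares were 3.1% and 10.4%. Adamts5, which cleaves proteoglycans, rose in HFD (1.10, adjusted p = 0.00227) and fell in HFD-O304 vs HFD islets (-0.84, adjusted p = 0.00625), as did Plat, tissue plasminogen activator (0.49, adjusted p = 0.00670, and -0.78, adjusted p = 1.34e-05). Mmp17, a membrane-bound metalloprotease, fell in HFD-O304 vs HFD islets (-0.98, adjusted p = 2.37e-04).

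Transforming growth factor beta is a known inducer of collagen genes, and genes of its pathway passed in both directions. Of 24 genes, 3 rose and 1 fell in HFD vs RD islets, 1 rose and 1 fell in HFD-O304 vs RD islets, and 4 rose and 2 fell in HFD-O304 vs HFD islets. These are 16.7%, 8.33% and 25.0% of the list, the last near the 18.3% of genes with at least 210 read pairs. Tgfb3 had 193 to 253 (median 218) normalized counts over the RD samples, 289 to 419 (median 336) over the HFD samples and 131 to 180.3 (median 142) over the HFD-O304 samples. Tgfb3, a ligand, rose in HFD (0.63 ± 0.093, adjusted p = 1.27e-04) and was lower in HFD-O304 than in RD (-0.50 ± 0.10, adjusted p = 0.00241) and HFD (-1.13 ± 0.10, adjusted p = 4.20e-09), and no pair of groups overlapped. Inhba had 45.9 to 77.5 (median 55.5) normalized counts over the RD samples, 107.01 to 246 (median 159.5) over the HFD samples and 15.7 to 47.7 (median 29.5) over the HFD-O304 samples. Inhba, the activin A subunit, rose in HFD (1.48 ± 0.20, adjusted p = 3.45e-05) and fell in HFD-O304 vs HFD islets (-2.42 ± 0.21, adjusted p = 5.61e-09), and Inhbb rose in HFD (0.99, adjusted p = 0.00119). Smad3 had 152 to 225 (median 181) normalized counts over the RD samples, 94.4 to 147 over the HFD samples and 158 to 221 (median 192) over the HFD-O304 samples. Smad3, the transducer of these ligands, was lower in HFD than in RD (-0.67 ± 0.11, adjusted p = 3.30e-04) and higher in HFD-O304 than in HFD (0.73 ± 0.11, adjusted p = 1.82e-05). Ltbp2, a matrix protein of microfibrils, was higher in HFD-O304 than in RD (1.36, adjusted p = 1.70e-04) and HFD (1.98, adjusted p = 1.67e-07), and the receptor Tgfbr1 rose in HFD-O304 vs HFD islets (0.40, adjusted p = 7.39e-05).

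Of 35 other genes of basement membrane and matrix, 4 rose and 3 fell in HFD vs RD islets, 2 fell in HFD-O304 vs RD islets, and 6 rose and 17 fell in HFD-O304 vs HFD islets, with medians of 0.31, -0.17 and -0.42. Elastin (Eln), Smoc1, a calcium-binding basement membrane protein, and Frem2 rose in HFD (1.23, 0.85 and 1.10) and were lower with O304 than in HFD (-1.59, -1.27 and -1.26). Npnt had 1056 to 1279 (median 1117) normalized counts over the RD samples, 626 to 1020.4 (median 778) over the HFD samples and 1136 to 1353 (median 1171) over the HFD-O304 samples. Npnt, nephronectin, an integrin ligand of basement membranes, was lower in HFD than in RD (-0.49 ± 0.087, adjusted p = 6.30e-04), and so were Egflam, pikachurin (-0.57, adjusted p = 6.97e-05), and Mfap2 (-0.79, adjusted p = 0.00930). Matn2 and Efemp2 fell in HFD-O304 vs RD islets (-0.52, adjusted p = 2.94e-05, and -0.31, adjusted p = 0.00498), and Vcan, a large proteoglycan, rose in HFD-O304 vs HFD islets (0.66, adjusted p = 0.00937).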

How the data were processed

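Islet RNA was sequenced for 21 samples. Per the labels and the study's methods the authors aligned paired-end reads to GRCm38 (FastQC and STAR are named in the submitters' processing notes) and deposited STAR's counts of read pairs per gene, unnormalized, for either strand and for both. Pairs with more than one possible place or gene were not counted. The column of the strand with the larger total was used, 28.8 to 36.3 times the other.

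Genes with a sum of at least 10 were fitted in edgeR 4.0.16 (R 4.3.3; TMM, quasi-likelihood test, all 3 groups, no covariates), with Benjamini-Hochberg adjustment over 27229 genes and a threshold of 0.01. Adjusted p values come from this fit unless the text names a correlation, a sample left out or the test between library sets. Normalized counts are counts divided by the size factors of DESeq2 1.42.0, and SE is that of the log2 fold change. RPKM used the exon length of all transcripts joined. Correlations used log2 with a pseudocount of 1 and 100000 permutations within groups. The scripts were tested on simulated data. Tables and figures used Python 3.11.15, numpy 2.4.6, pandas 2.3.3, scipy 1.17.1 and matplotlib 3.10.9.

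The members and lists were chosen with earlier results of these data known. Named members are those called in any comparison, the 2 of highest RPKM in each role, and the 5 of largest change per comparison among members averaging 50 or more normalized counts. Genes of other lists are named if called, at most 3 per direction and list. Replicates are pools of animals, and precision is set by 7 samples a group and, for members with few reads, by the shallowest library. The alternatives covered the test, normalization, filter, strand, groups in the fit, replicate block, library set, marker levels, threshold and each sample left out. Covariates for endothelial markers were added after the data were seen. ChIP-seq was not analysed here. Of the 60 members, 1 is counted but not reported by name here.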

Additional observations from a re-analysis of the deposited data

Results flagged for a closer look

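In 120 groups of 7 samples, those of the 40 named members, 13 held a sample that lay far from the rest of its group by Dixon's test of a gap against the range. Chance gives about 1 in 20, and genes of 1 library are not independent. In 9 of the 13 the sample was HFD-O304 replicate 4, which was the highest of its group. It had 212 normalized counts of Fn1 where the next sample had 91.4, 968 of Col3a1 (next 439), 913 of Col1a2 (next 528), 1147 of Bgn (next 645), 358 of Postn (next 181) and 377 of Dcn (next 146). The others were Col5a2 with 223 (next 119.6), Col6a3 with 164 (next 89.9) and Col12a1 with 78.5 normalized counts (next 38.1). Without this library the log2 fold change in HFD-O304 vs HFD islets was -3.15 for Fn1, -1.78 for Col3a1 and -0.59 for Dcn. The stellate, fibroblast and pericyte markers of this library summed to 11144, where the other 6 of its group lay from 7557 to 11728.

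HFD replicate 7 was lowest of its group by the same measure in 3 members, with 6158 normalized counts of Col4a1 (next 8509), 817 of Col27a1 (next 1269) and 69.5 of Col6a3 (next 217). Without it the log2 fold change of Col4a1 in HFD vs RD islets was 0.44 (edgeR adjusted p = 0.00217), past the threshold, where it was 0.37, adjusted p = 0.0239 with all samples. HFD replicate 3 was the highest of its group for Col12a1, with 129 normalized counts (next 84.1).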

How the results depend on the processing

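The calls of Lama5, Fn1, Col18a1, Col8a1, Sparc and Col6a1 in HFD vs RD islets were kept whichever of the 21 samples was left out. Of these, Sparc and Col6a1 were not called in replicates 1 to 4 alone, nor Lama5 and Col8a1 in replicates 5 to 7 alone. Fn1 and Col18a1 were called in both. With 1 sample left out, the count of members called was 6 to 19 in HFD vs RD, 2 to 6 in HFD-O304 vs RD islets, and 30 to 38 in HFD-O304 vs HFD islets. At an adjusted p under 0.05 in place of 0.01 it was 20 in HFD vs RD islets and 7 in HFD-O304 vs RD islets, and DESeq2 gave 7 in HFD-O304 vs RD islets, where a fit of these groups alone gave 6. In HFD vs RD islets 5 members passed in replicates 1 to 4 alone and 8 in replicates 5 to 7 alone, in HFD-O304 vs RD islets 1 and 1, and in HFD-O304 vs HFD islets replicates 5 to 7 alone gave 19, with fewer samples in each. Col25a1 and Col26a1 lost their calls in HFD vs RD islets with unstranded counts and with a filter of at least 1 read.

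With the stellate, fibroblast and pericyte level as covariate the counts were 0 in HFD vs RD, 1 in HFD-O304 vs RD islets and 0 in HFD-O304 vs HFD islets. With the endothelial level, added after seeing the data, they were 1 in HFD-O304 vs RD islets and 12 in HFD-O304 vs HFD islets, and with both levels 0 in HFD vs RD islets and 0 in HFD-O304 vs HFD islets. Log2 fold changes that turned with the first covariate, all short of the threshold there but that of Sparc against RD, were Fbn1 -0.014 and Col14a1 -0.069 in HFD vs RD, Sparc 0.47 in HFD-O304 vs RD islets, and Col3a1 0.76, Col5a2 1.02, Fn1 1.11, Col6a3 0.55, Lamc1 0.0018, Fbn1 0.43, Bgn 1.11, Col4a5 0.13, Postn 0.76, Col15a1 0.13, Col1a2 0.76, Lama2 0.68, Lama4 0.16, Col6a2 0.70, Col6a1 0.72, Col18a1 0.64, Loxl2 0.17, Col12a1 0.16, Col23a1 0.39, Sparc 0.46, Nid1 0.43 and Col14a1 0.98 in HFD-O304 vs HFD islets. With both covariates they were Fbn1 -0.055, Col6a2 -0.011 and Col14a1 -0.12 in HFD vs RD, Col18a1 0.79 and Sparc 0.47 in HFD-O304 vs RD, both past the threshold, and Col3a1 0.75, Col5a2 1.05, Fn1 1.11, Col6a3 0.58, Fbn1 0.47, Bgn 1.12, Col4a5 0.12, Postn 0.79, Col15a1 0.065, Col1a2 0.76, Lama2 0.72, Lama4 0.10, Col6a2 0.72, Col6a1 0.73, Col18a1 0.62, Loxl2 0.21, Col12a1 0.16, Col23a1 0.45, Sparc 0.45, Nid1 0.40 and Col14a1 1.02 in HFD-O304 vs HFD islets. The cause was not tested.

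The groups share replicate numbers. Same-numbered samples' deviations from group means correlated by 0.199, 0.294 and 0.137 on average in the 3 comparisons, with 4, 6 and 5 of 7 pairs over 0.1, and in HFD vs RD, HFD-O304 vs RD and HFD-O304 vs HFD islets 3, 2 and 2 numbers correlated best with themselves. Over all 5040 pairings of the numbers, exact permutation p was 0.0462, 0.00516 and 0.136. Same-numbered samples also share a set of libraries, and these pairings did not hold the set fixed. Since not every pair was over 0.1 and no label ties the numbers to a shared animal or day, they were not taken as pairs. With the replicate block 17 members passed in HFD vs RD, 6 in HFD-O304 vs RD islets and 38 in HFD-O304 vs HFD islets. With the library set as covariate these counts were 16, 4 and 37. With the longest transcript as length, Sparc had 65.7 RPKM in place of 39.9. Such a move was examined for the 2 members of highest RPKM in each role. Of these, 7 moved by more than 1 SD, taken as the largest SD of the 3 groups. Members with few read pairs, such as Col7a1, Col23a1 and Col9a3, are limited by depth.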

Other observations

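Markers of some other cell types in the same islets differed between the groups. Of genes with at least 210 read pairs, 3.1% passed as higher and 2.42% as lower in HFD vs RD islets. In HFD-O304 vs HFD islets these shares were 7.85% and 10.4%. Of 7 alpha-cell markers, 5 were lower and 1 higher in HFD than in RD, and 6 were higher and 1 lower in HFD-O304 than in HFD islets. Of 4 delta-cell markers, 3 were lower in HFD than in RD and 4 higher in HFD-O304 than in HFD islets. Of 10 duct-cell markers 4, and of 5 mesothelial and adipocyte markers 1, Msln, were higher in HFD-O304 than in HFD islets. Of 10 macrophage markers 1, Csf1r, was higher there, which is near the 7.85% of genes. The median log2 fold change of these 10 was -0.013, with 5 higher and 5 lower. Of 10 beta-cell markers 3 were higher and 3 lower in HFD-O304 than in HFD islets. None of 13 acinar markers passed in any comparison with edgeR, 1 at an unadjusted p under 0.05 in HFD-O304 vs RD islets, and their sum ranged from 730.4 to 316393 normalized counts over the samples.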
